A study of Drosophila melanogaster with 9 samples.

Results

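The general dREAM complex genes E2f2, Dp, Rbf, mip120, mip130 and Myb were followed in adult Drosophila testes on Affymetrix arrays. They were chosen as the general relatives of the testis complex tMAC, by gene symbol and not by their signals. A probe set with a single matching symbol was found for 5 of the 6 genes, against 10844 genes named on the array, and Myb was not analysed here. The study compared 3 genotypes with 3 arrays each. The testes labelled comr carried comr[z1340] with the eye colour markers cn[1] and bw[1], although their source name and description give aly[5], an allele of another gene. Which gene was mutant was therefore not settled, and the group is called "labelled comr" throughout. The can testes carried w and can[3] on the red[1] e[1] chromosome. Control testes carried red[1] e[1] alone and were described as normal, so can and control share these markers and the testes labelled comr do not. All males were adults no more than a day old, raised at 25 °C. Dissected testes were frozen and pooled until there was enough material. Separate pools for the replicates are not stated, so a p value here reflects array-to-array spread alone, and the number of arrays limits the precision.

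In flies, dREAM joins the DNA-binding pair of an E2F protein and Dp to a retinoblastoma-family repressor, to the Myb-interacting proteins (Mip) and to Myb itself. It sits at many promoters of dividing and differentiated cells, holding genes of other cell types or sexes silent and, through Myb, helping to switch on genes of mitosis. Spermatocytes build a testis version, tMAC, in which Aly takes the place of Mip130, Tomb that of Mip120 and Wuc that of Lin-52, while Mip40 and Caf1-55 serve in both complexes. Without tMAC or the testis TAFs, such as Can, spermatocytes arrest before the meiotic divisions and spermatid genes stay off.

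Of the 5 measured genes, E2f2 and mip120 rose in both mutants and Dp in the testes labelled comr. Rbf lay just short of the 2-fold limit in both, and mip130 could not be told from background. A change is the difference between groups in log2(signal + 16), and SE is its standard error. A fold is the same difference on a linear scale, so of signal + 16, and the added 16 draws it toward 1. Only folds given as "at least" are of signal alone, over a background floor given below. To be called, a probe set needed a change of at least 2-fold in signal + 16 and, in limma, a p under 0.05 after Benjamini-Hochberg adjustment. By that rule 3 of 5 genes were called higher in the testes labelled comr, where 28.9% of all tested probe sets were called higher. In can it was 2 of 5, with a background of 20.7%. mip120 was among the called genes, but its control signals lay below background and it passed the filter on mean signal only through its mutant arrays, so it had to differ. Of the 4 genes without it, 2 were called higher in the testes labelled comr and 1 in can. E2f2 was called higher in both mutants, as were 17.4% of probe sets. Without the fold minimum 4 of 5 were higher at an adjusted p under 0.05 in each mutant, beside 50.5% of probe sets in the testes labelled comr and 47.2% in can. None of the 5 was called lower in either comparison, against 16.7% and 13% of probe sets. The median change of the 5 genes was 1.09 in the testes labelled comr and 0.90 in can, beside medians of 0.35 and 0.29 over all 9778 tested probe sets. With mip120 set to the lower bound that background allows, the medians were 1.09 and 0.63. Both comparisons use the same control arrays. In whole testes, fewer cells of a type and less RNA per cell cannot be told apart.

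**Figure D1:**
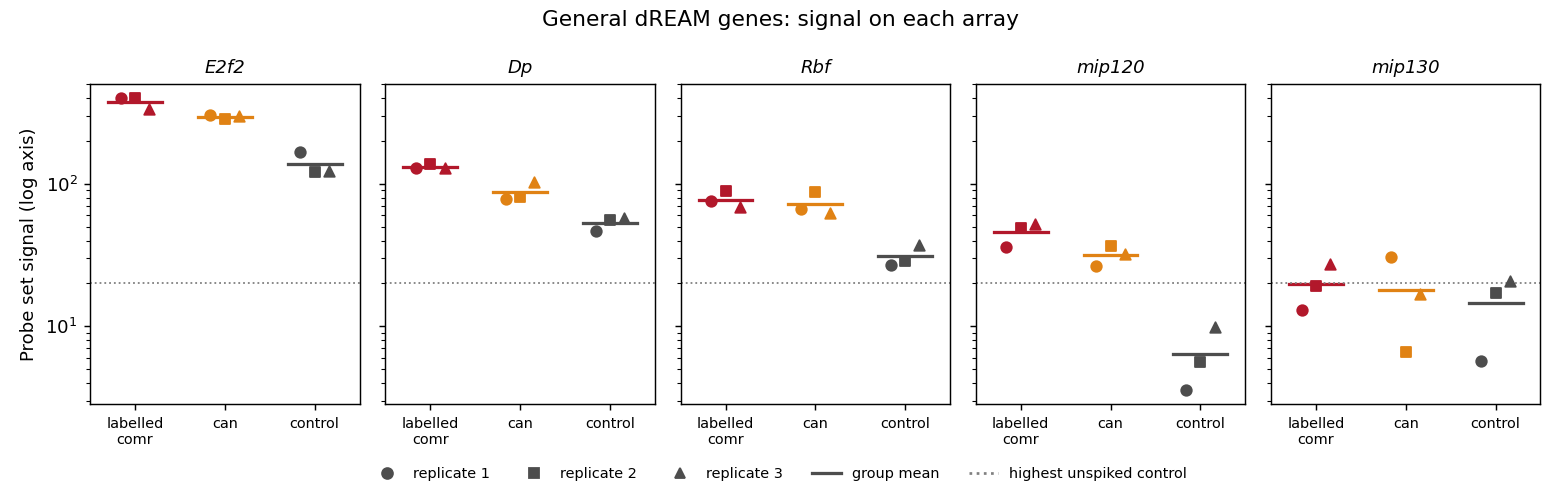
Signal of each general dREAM gene on every array (log axis), in testes labelled comr, can testes and control testes. Points are arrays, bars are group means (n = 3) and the dotted line is the highest signal of an unspiked control probe set, 20.3. E2f2, Dp and Rbf lie above the line on every array, mip120 only in the mutants, and mip130 scatters around it in all genotypes.

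The DNA-binding pair E2f2 and Dp gave the clearest signals. E2f2 (CG1071, chromosome arm 2L), the E2F protein that acts mainly as a repressor, had signals of 398, 399.4 and 335.6 in testes labelled comr, 302.5, 286.1 and 299.9 in can and 166.3, 122.1 and 123.3 in control. Each group lay apart from the next, with the testes labelled comr highest and control lowest. The rise over control was 1.37 (SE 0.114, adjusted p = 2.13e-07, limma) in the testes labelled comr and 1.04 (SE 0.114, adjusted p = 3.97e-06) in can. The call in can was close to the 2-fold limit: without control replicate 2 the change was 0.97 and without control replicate 3 it was 0.98, both under 2-fold. Dp (CG4654, arm 2R), the partner that E2F proteins need to bind DNA, gave 128.3, 136.9 and 129.1 in testes labelled comr, 78.6, 80.8 and 102.6 in can and 46.5, 56.1 and 57.6 in control. The genotypes did not overlap and kept the same order as for E2f2. Dp rose by 1.09 (SE 0.116, adjusted p = 2.30e-06) in the testes labelled comr. In can its change of 0.57 (SE 0.116, adjusted p = 7.69e-04) was a 1.48-fold difference and was not called.

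Rbf (CG7413, arm X), the fly counterpart of the retinoblastoma protein, which binds E2F proteins and blocks activation by them, had 75.5, 88.6 and 68.6 in testes labelled comr, 67, 87.2 and 62.1 in can and 27, 28.7 and 37.2 in control. The arrays of both mutants overlapped, and all of them lay above control. Its change from control was 1.99-fold (SE 0.143 on the log2 scale, adjusted p = 3.56e-05) in the testes labelled comr and 1.87-fold (adjusted p = 1.04e-04) in can. Rbf thus passed the p threshold in both mutants and the fold threshold in neither. In the testes labelled comr the 2-fold limit was reached when control replicate 3, comr replicate 1 or comr replicate 3 was left out, with changes of 1.09, 1.01 and 1.07. With an offset of 1 or centring on spiked controls Rbf was called in both mutants, with changes of 1.30 and 1.36 in the testes labelled comr and of 1.19 and 1.02 in can.

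mip120 and mip130 sat close to the detection limit. A floor of 20.3 was set, the brightest value among the 23 unspiked control probe sets. mip120 (CG6061, arm 2R), a DNA-binding protein with cysteine-rich domains, had 35.8, 49.2 and 52.7 in testes labelled comr, 26.5, 36.4 and 32 in can and 3.6, 5.6 and 9.9 in control. Every mutant array was above the floor and every control array below it. mip120 was at least 2.23-fold higher in the testes labelled comr (log2 change 1.47, SE 0.164, adjusted p = 3.55e-06). In can it was at least 1.55-fold higher (log2 change 1.10, SE 0.164, adjusted p = 6.41e-05), a bound that is under 2-fold. Each bound is a geometric mean of mutant signals over the floor. The p values of mip120 rest on control signals that are not above background.

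mip130 (CG3480, arm X), the general counterpart of Aly, gave 13.1, 19.2 and 27.6 in testes labelled comr, 30.5, 6.6 and 16.9 in can and 5.7, 17.2 and 20.9 in control. Only 1 array of each genotype exceeded the floor and the genotypes overlapped. The change was 0.25 (95% confidence interval -0.35 to 0.85, adjusted p = 0.416) in the testes labelled comr and 0.13 (-0.47 to 0.73, adjusted p = 0.699) in can. The added 16 compresses changes at such low signal, so these intervals do not bound a change of the mip130 transcript itself.

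**Figure D2:**
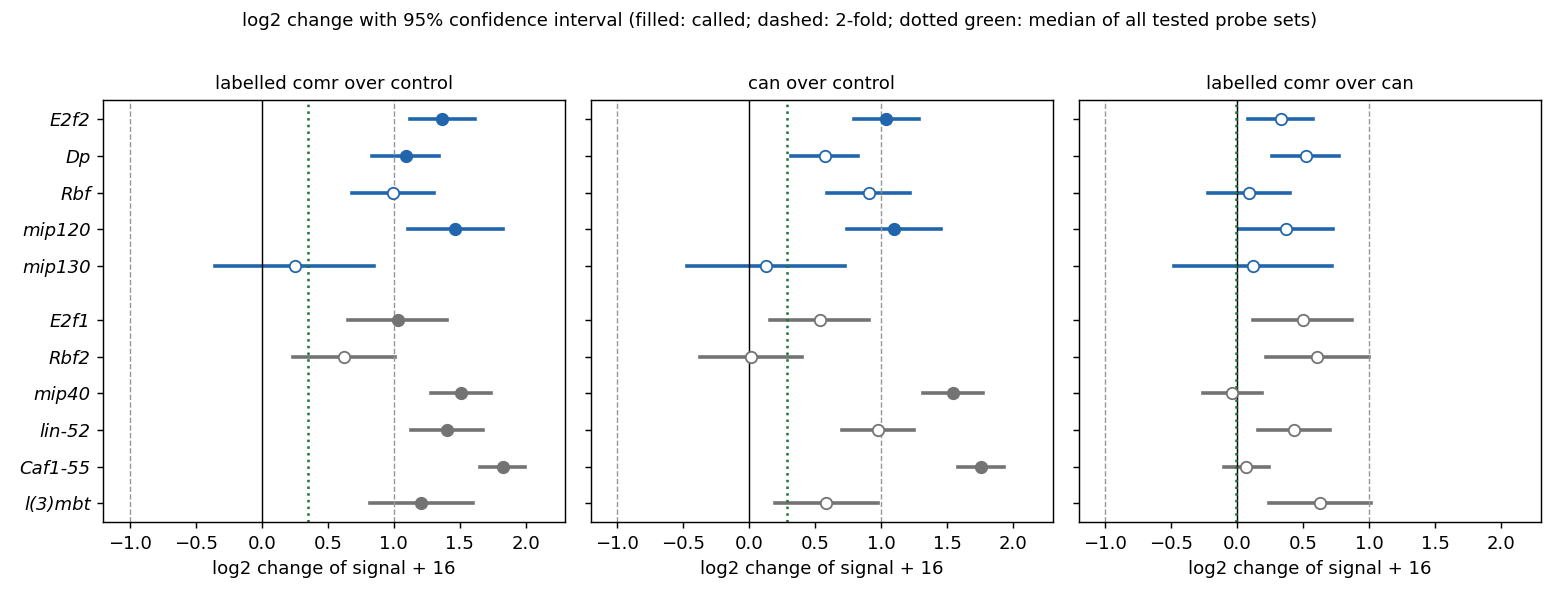
Changes of the 5 dREAM genes (blue) and of 6 related genes (grey) in the 3 comparisons, on the log2 scale of signal plus 16, with 95% confidence intervals from limma (n = 3 arrays per group). Filled points were called, dashed lines mark 2-fold and the dotted line is the median of all tested probe sets. E2f2 and mip120 are filled in both comparisons with control, Dp only in the first, and no dREAM gene in the comparison of the mutants.

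Many other genes changed as much as the 3 that could be read on every array. In the testes labelled comr, 82.3% of tested probe sets had a lower change than E2f2, 74.2% than Dp and 70.9% than Rbf. In can the shares were 80.7% for E2f2, 76% for Rbf and 62.8% for Dp.

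The mutants were then compared with each other, a comparison that uses no control array. limma called 0 of the 5 genes at 2-fold, where 4.54% of probe sets were called higher in the testes labelled comr and 10.3% lower. At an unadjusted p under 0.05, 3 of the 5 passed, where 4810 of the 9778 probe sets passed even at an adjusted p under 0.05, in either direction. Without the 2-fold minimum 2 genes had an adjusted p under 0.05, Dp and E2f2, both higher in the testes labelled comr, where 25.1% of probe sets were higher by that rule. Dp was 1.43-fold higher in testes labelled comr than in can (log2 change 0.52, 95% interval 0.27 to 0.77, adjusted p = 0.00266). E2f2 was 1.26-fold higher (log2 change 0.33, interval 0.08 to 0.58, adjusted p = 0.0296). For mip120 the difference was 0.37 (interval 0.02 to 0.73, adjusted p = 0.0792) and the lowest array labelled comr lay below the highest can array. Rbf differed by 0.09 (interval -0.22 to 0.40, adjusted p = 0.625) and mip130 by 0.12 (-0.48 to 0.72, adjusted p = 0.740).

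How the arrays were scaled altered the size of the changes against control and, for some, their sign. The deposited arrays share a common trimmed mean. Centring them on 27 ribosomal protein genes, which themselves had a median change of 1.02 in the testes labelled comr and 1.29 in can, moved the median of all probe sets by -1.02 and -1.24. Then E2f2 changed by 0.35 (limma, adjusted p = 0.0321) and mip120 by 0.45 (adjusted p = 0.0257) in the testes labelled comr. Both were under 2-fold and so not called, where 5.64% of all probe sets were called higher. In can, E2f2 stood at -0.20, mip120 at -0.14, Rbf at -0.33 and Dp at -0.67 under that centring. Centring on spiked controls gave 1.74 for E2f2, 1.83 for mip120, 1.46 for Dp and 1.36 for Rbf in the testes labelled comr. In those testes E2f2 was called under quantile normalisation and centring on array medians too, while Dp, at 0.86 and 0.91, was not. mip120 was called under both as well, but its control signals lay below background, so its calls add no support. In can no dREAM gene was called under either. Of all probe sets 26.2% and 22.8% were called higher in the testes labelled comr under these scalings, and 17% and 12.9% in can. Between the mutants, each of the other scalings raised the median of all probe sets, from -0.0058 as deposited to values of 0.0719 to 0.2456. The difference between the mutants was above 0 for all 5 genes under each of the 5 scalings, which these upward shifts favour. For Dp it ranged from 0.52 to 0.77 over the 5 scalings, and its adjusted p lay between 6.55e-04 and 0.0140 in all 21 alternatives run. For E2f2 it ranged from 0.29 to 0.58 over the scalings, with an adjusted p of 0.00430 to 0.101 over its alternatives.

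**Figure D3:**
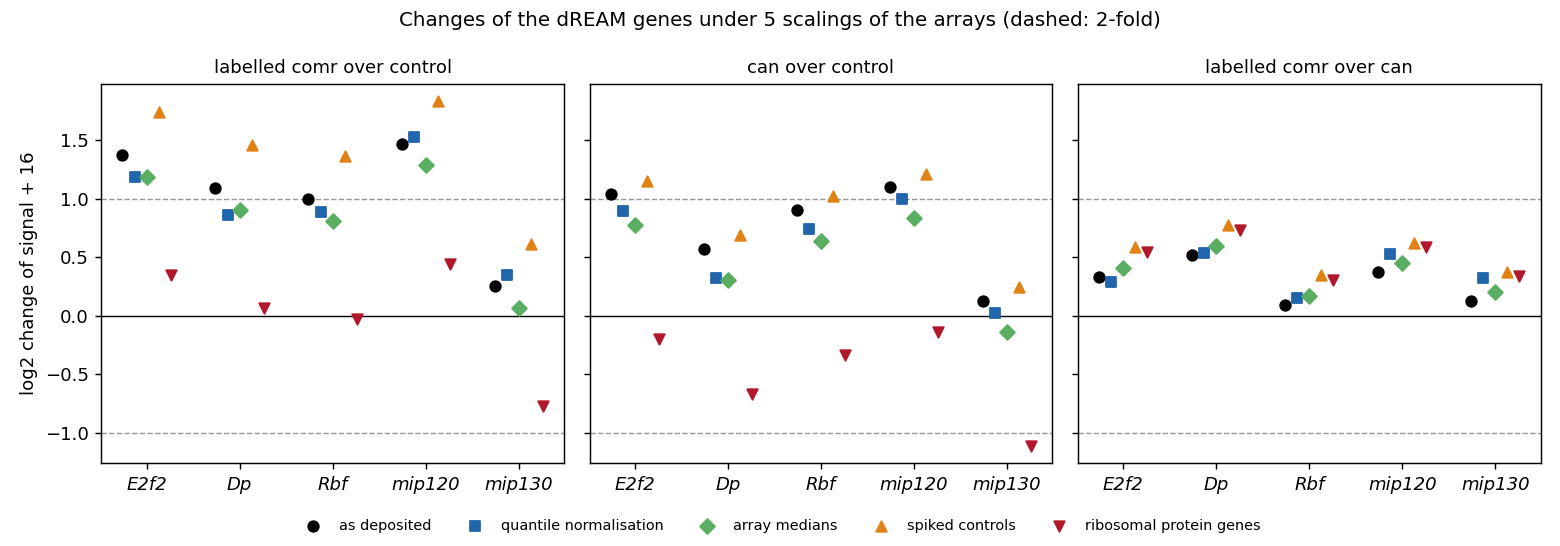
log2 change of each dREAM gene under 5 scalings of the arrays, for each comparison. Against control the points spread widely, and centring on ribosomal protein genes (red) lowers every gene, below 0 for all 5 in can. Between the mutants the points of each gene stay close together and above 0, where each of the other scalings also raises the median of all probe sets.

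The other general members moved as follows. Of 6 such genes, all measured, 5 rose in the testes labelled comr (median 1.31) and 2 in can (median 0.78), and none was called lower. These are 83.3% and 33.3% of the 6, beside the 28.9% and 20.7% of all probe sets. Under ribosomal protein centring none of the 6 was called higher in either mutant, and 1 was called lower in can. Of all probe sets 5.64% and 1.25% were then called higher, and 47.5% lower in can. Caf1-55, a histone-binding WD40 protein shared with tMAC, had 374.5, 377.1 and 381.7 in testes labelled comr, 374.8, 363 and 339.3 in can and 94.2, 102.6 and 88.8 in control. It rose by 1.83 (SE 0.0788, adjusted p = 4.07e-10) and 1.75 (adjusted p = 1.47e-09). mip40, also shared with tMAC, rose by 1.51 (SE 0.103) in the testes labelled comr and 1.55 (SE 0.103) in can. Neither of these shared subunits differed between the mutants beyond the spread of the arrays, with intervals of -0.10 to 0.24 for Caf1-55 and -0.26 to 0.19 for mip40.

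The remaining members had higher signals in the testes labelled comr than in can. lin-52, a small subunit of the core, averaged 114.7 ± 17.4 (SD, n = 3 here and for the following means) in testes labelled comr, 80.3 ± 0.693 in can and 33.2 ± 5.06 in control, and was called only in the first (log2 change 1.41, against 0.97 in can). l(3)mbt, a chromatin protein with MBT repeats found with the complex, averaged 91.2 ± 4.23, 53.6 ± 5.21 and 31.6 ± 13.4 in the same order and was called at 1.21 in the testes labelled comr. E2f1, the activating E2F, had 78.1 ± 5.56 in testes labelled comr, 50.9 ± 7.34 in can and 31.1 ± 12.9 in control, with a call of 1.03 in the first. Rbf2, the second retinoblastoma-family protein of flies, had 49.9 ± 6.01, 27.2 ± 3.96 and 27.6 ± 10.3 and was not called (log2 change 0.62 and 0.01). Each of these 4 genes was higher in the testes labelled comr than in can at an adjusted p under 0.05 but by less than 2-fold. The differences were 0.43 for lin-52, 0.63 for l(3)mbt, 0.50 for E2f1 and 0.61 for Rbf2. At that adjusted p with no fold minimum, 25.1% of all probe sets were higher in the testes labelled comr.

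The tMAC subunits without a general role include direct counterparts of the Mips. Of 6 measured, 5 rose in the testes labelled comr (83.3%, median 1.87) and 3 in can (50%, median 1.06), against 28.9% and 20.7% of all probe sets. One of them, achi, was below the floor on every control array and passed the filter through its mutant arrays. Of the 5 others 4 rose in the testes labelled comr and 2 in can. With ribosomal protein centring the counts over all 6 were 3 and 0, where 5.64% and 1.25% of all probe sets were called higher. topi, a zinc finger subunit, averaged 691.6 in testes labelled comr, 75 in can and 140 in control. It rose by 2.20 in the testes labelled comr, while its change of -0.76 in can (adjusted p = 1.86e-04) was not called. In can 1 gene of the list was called lower with ribosomal protein centring, quantile normalisation or array medians. Of all probe sets 47.5%, 14.5% and 16% were called lower there. Signals of comr were 34.7, 30 and 35.7 in testes labelled comr, 68.7, 49.1 and 56.6 in can and 13.9, 14.2 and 23.8 in control, and aly was at 526.9 to 558.8, 165.1 to 187.7 and 79.8 to 89.6. Neither transcript was lost in the testes labelled comr, so the signals do not settle which gene was mutant. For each counterpart the log2 ratio of signal plus 16 was taken within each array, in which a scaling shared by the array largely cancels. The ratio of wuc to lin-52 was 2.12 ± 0.180 in testes labelled comr, 1.41 ± 0.055 in can and 0.42 ± 0.203 in control, and no genotypes overlapped. The ratio was 3.25-fold that of control in the testes labelled comr and 1.99-fold in can. The ratio of aly to mip130 was 3.98 ± 0.251, 2.56 ± 0.560 and 1.78 ± 0.326 in the same order, but mip130 was mostly at the floor and the can arrays overlapped control. The ratio of tomb to mip120 was 1.82 ± 0.227, 1.74 ± 0.168 and 1.88 ± 0.242, with all genotypes overlapping and mip120 below the floor in control. The ratio of Rbf to Rbf2 was above control on every can array (1.02 ± 0.228, against 0.13 ± 0.271 in control), while the testes labelled comr overlapped control at 0.50 ± 0.285. The ratio of E2f2 to E2f1 was likewise above control on every can array (2.23 ± 0.197, against 1.72 ± 0.155 in control) and overlapped control in the testes labelled comr (2.06 ± 0.203). With 3 arrays against 3, an exact permutation test cannot go below p = 0.1, and over the 18 comparisons of 6 pairs the lowest adjusted value was 0.225, so this design could not have passed any of these ratios, whatever their size.

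**Figure D4:**
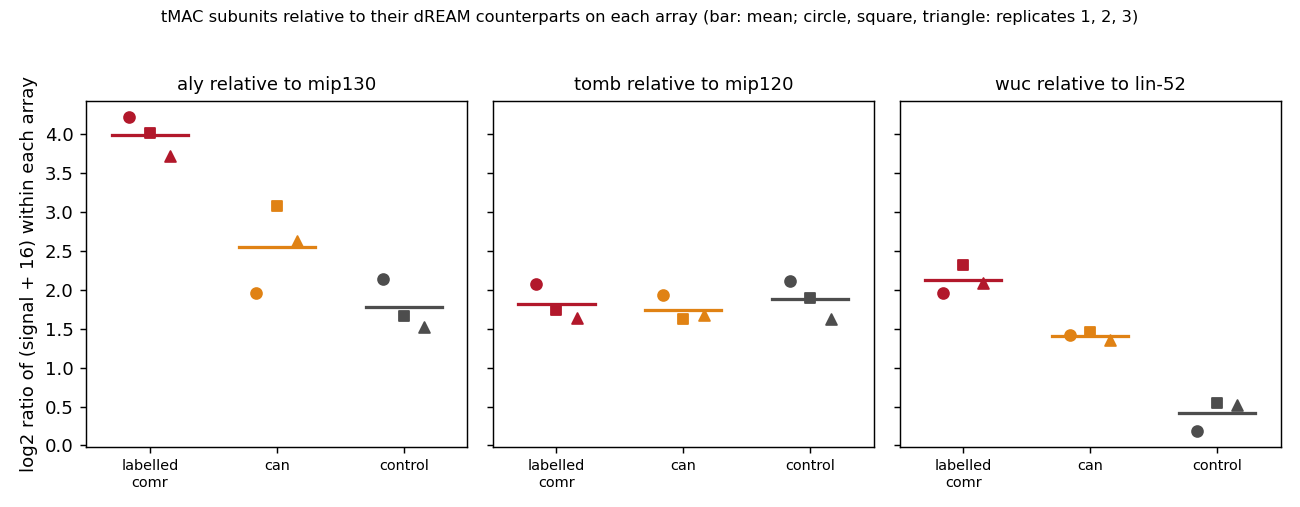
log2 ratio of signal plus 16 of aly to mip130, tomb to mip120 and wuc to lin-52 on each array, in testes labelled comr, can testes and control testes. Points are arrays and bars are means (n = 3). The genotypes are separate for wuc relative to lin-52 and overlap for tomb relative to mip120.

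Rbf is held off E2F by cyclin-dependent kinases, and 4 of 5 genes of that group were measured. CycD, the cyclin that starts phosphorylation of Rbf, had 19, 14.2 and 22.8 in testes labelled comr, 46.8, 54.9 and 57.7 in can and 16, 11.5 and 18.3 in control. It was at least 2.61-fold higher in can (log2 change 1.15, SE 0.149, adjusted p = 1.83e-05), where the testes labelled comr overlapped control. Between the mutants CycD was lower in the testes labelled comr (adjusted p = 1.33e-04), but only 1 of their 3 arrays exceeded the floor, so no fold is given. This call was lost under each of the 4 other scalings. With ribosomal protein centring or array medians its call in can was lost too. Cdk2, the partner of Cyclin E, averaged 92.8 ± 4.62 in testes labelled comr, 52.7 ± 7.36 in can and 49.8 ± 7.12 in control, a log2 change of 0.73 in the first that did not reach 2-fold. Cdk4 was not called (log2 change 0.27 and -0.08), and CycE was below the floor on all arrays and not tested.

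Known targets of the E2F and Myb arms were read from lists. Of 22 S phase genes regulated by E2F, 17 were measured and 14 passed the filter on signal. In the testes labelled comr 6 of these were called higher (42.9%, median 0.92) and in can 4 (28.6%, median 0.50), with none lower, where 28.9% and 20.7% of all probe sets were higher. Control signals of several S phase genes lay wholly below the floor. Where the geometric mean of the mutant lay above it, only a lower bound could be given. Without the genes known only by a bound, 4 of 8 were called higher in the testes labelled comr and 1 of 10 in can. With them at their bounds the medians were 0.84 and 0.34. Mcm6 and RnrL, below the floor in control, had no bound in can and stay among the 10. PCNA, the replication clamp, averaged 411 ± 32.1 in testes labelled comr, 303 ± 10.5 in can and 102 ± 13.2 in control, rises of 1.86 and 1.44. Orc2, of the origin recognition complex, was at least 3.92-fold and 1.63-fold higher, and the helicase subunit Mcm5 at least 5.60-fold and 2.40-fold, and both passed the filter through their mutant arrays. Of 20 genes of mitosis 12 were measured, and 6 rose in the testes labelled comr (50%, median 1.13) and 7 in can (58.3%, median 1.05), with none called lower. The mitotic cyclin gene CycB, named after its values were seen, stood apart in this list. It averaged 63.1 in testes labelled comr, 288 in can and 128.7 in control. Its change was -0.88 in the testes labelled comr (adjusted p = 3.39e-06, not called), it rose by 1.07 in can, and between the mutants it was called lower in the testes labelled comr, by -1.95. borr, of the chromosomal passenger complex, rose by 2.91 in the testes labelled comr and 1.52 in can by its brighter probe set. A second borr probe set disagreed, with changes of 0.52 and -0.35, neither called. The mitotic kinesin gene Klp61F rose by 1.98 and 1.64, and the checkpoint kinase gene Bub1 by 1.69 and 1.67. Ribosomal protein centring lowers all genes alike, and under it 5.64% of all probe sets were called higher and 40.1% lower in the testes labelled comr, and 1.25% and 47.5% in can. Of the S phase genes 2 were then higher and 2 lower in the testes labelled comr, and 0 higher and 6 lower in can, which for can is near the share of all probe sets. Of the mitosis genes 1 was higher and 2 lower in the testes labelled comr, and 0 higher and 1 lower in can. With quantile normalisation or array medians 1 mitosis gene was lower in the testes labelled comr, where 17.1% and 19.1% of all probe sets were.

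Other cell types were read from marker genes on the same arrays. Summed signals of 5 measured early germline markers of 7 (bam, bgcn, vas, zpg and aub) ranged from 818.4 to 842.1 in testes labelled comr, 447.9 to 550.4 in can and 252.1 to 267 in control. The members did not all follow that order: bgcn averaged 252.8 in testes labelled comr, 110.6 in can and 123.3 in control. The 3 spermatocyte markers moved in opposite directions. Rbp4 rose by 2.49 in the testes labelled comr and 2.16 in can, kmg rose by 1.67 in the testes labelled comr and stood at 0.94 in can, and betaTub85D was called lower, at -3.35 and -2.69. Their sums were 1591 to 1636, 1313 to 1483 and 2724 to 2987. Sums of 6 of 8 spermatid markers were 3004 to 3368, 3682 to 3925 and 16300 to 17200. These sums hide differences between the mutants: dj averaged 16, 354.2 and 1814, and Mst98Cb went the other way, at 1807, 822.5 and 3798. Of the 6, 4 were called lower and 1 higher in the testes labelled comr than in can, beside 10.3% and 4.54% of all probe sets. The 7 measured cyst and hub markers of 8 summed to 213.8 to 224.3, 263.3 to 265.5 and 206.8 to 229.2, and the 4 haemocyte markers to 576.6 to 658.9, 389 to 448.6 and 138.3 to 268. The 3 measured muscle markers of 4 summed to 687.4 to 897.5, 648.4 to 717.5 and 435.2 to 525.5. No marker of these lists was at 0, although tj and upd1, which mark cyst and hub cells, and Act88F of muscle lay below the floor on all arrays. Mst77F, dj and djl did so in the testes labelled comr, and bam and Hml in control. hh was above the floor on no mutant array. Accessory gland signal varied within each genotype, its 10 measured markers of 12 summing to 45.5 to 1728, 108.3 to 3550 and 607.1 to 4088. The 3′ to 5′ signal ratio of GAPDH, a sign of RNA quality, was 5.99 ± 0.635 in testes labelled comr, 5.52 ± 1.33 in can and 2.59 ± 0.294 in control. Actin gave ratios of 2.43, 2.57 and 2.62 in the same order of genotypes, and eIF-4a gave 6.76, 3.83 and 5.22, so the ratios did not set both mutants apart from control in the same way. The part of cell makeup and of RNA quality in the changes of the dREAM genes was not tested. When comr replicate 1, can replicate 3 and control replicate 1, the arrays richest in gland markers, were set aside, there were 3 calls in the testes labelled comr and 1 in can, E2f2, with mip120 at 0.9965 in can. Of the 9778 probe sets 2788 and 2025 were then called higher. This check was chosen after seeing the data.

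The genes whose array-to-array pattern was most like each dREAM gene were sought among 8224 other tested genes, by the root mean square difference of gene-centred log2 values over the 9 arrays. This measure follows mainly the 3 genotype means and is given as a description. For E2f2 the nearest were the chloride channel gene ClC-b (0.0877), CG4887 (0.0906) and CG5355 (0.092). Nearest to mip120 were scra (0.0845), which encodes anillin of the cytokinetic ring, AIMP1 (0.117) and Nedd8 (0.118), the ubiquitin-like modifier. Dp was closest to CG9752 (0.0476), Las (0.0707) and U3-55K (0.0753), and Rbf to lsn (0.105), COX7A (0.106) and CG13365 (0.109). For mip130 the nearest, CG2310, was at 0.199, farther than for any other dREAM gene. Among the dREAM genes themselves, E2f2, Dp, Rbf and mip120 lay 0.245 to 0.274 apart, and mip130 lay 0.474 to 0.644 from each of them.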

How the data were processed

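Probe set intensities on a linear scale were deposited by the authors, who used GCOS 1.4 per the submitters' processing notes. Other steps are not stated in the sources read. The mean of each array without its lowest and highest 2% was 100.01 in the deposited intensities. Of 14010 probe sets, 44 were controls, 12443 carried 1 symbol, 327 several and 1196 none. Symbols came from the platform annotation and were updated by gene ID for 12394. No build is named, so coordinates were not used here, and neither were sequences.

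After the dimmest 30% by mean had been dropped, 9778 probe sets of 8225 genes with a mean of at least 15.1 were tested as log2(signal + 16). limma 3.58.1 in R 4.3.3 fitted all 9 arrays with 1 coefficient per genotype and an intensity trend, two-sided, adjusted over all probe sets tested. The fit was tested on simulated data. Alternatives changed the offset (1, 64), the filter (none, 50%), the scaling (quantile, or centring on ribosomal protein genes, array medians or 9 spiked controls), the trend, the groups fitted and the fold minimum, added a replicate block, or left out each array. Lists used a gene's brightest probe set. All dREAM, tMAC and kinase genes could be named, as could the 3 called S phase and mitosis genes with the largest change in each comparison with control, and the 3 nearest genes. Members, lists and pairs were chosen with earlier results of these data known.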

Additional observations from a re-analysis of the deposited data

How the results depend on the processing

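Counts over all probe sets depended mainly on the offset and the fold minimum. An offset of 64 gave 2739, 1922 and 653 calls where the reported fit gave 4460 in the testes labelled comr, 3304 in can and 1447 between the mutants. No minimum fold gave 7762, 6949 and 4810. For the dREAM genes in the testes labelled comr, the 3 calls became 4 with an offset of 1 or spiked controls, 1 with an offset of 64 and 0 with ribosomal protein centring. Of the 9778 probe sets, 2826 were called higher there in the reported fit. The number was 3497 with an offset of 1, 4014 with spiked controls, 1492 with an offset of 64 and 551 with ribosomal protein centring. In can the 2 calls became 3 with an offset of 1 or spiked controls (Rbf added), and 0 with an offset of 64, quantile normalisation or array medians. Of all probe sets 2028 were called higher in can in the reported fit, 2846 with an offset of 1 and 2415 with spiked controls. With an offset of 64 it was 946, with quantile normalisation 1664 and with array medians 1261. The dREAM calls in can became 1 with 50% of probe sets left out (mip120 was then not tested) and 1 with ribosomal protein centring (mip130, lower). They became 1 without the arrays richest in accessory gland signal (chosen after seeing the data), and 4 with no minimum fold. In the same order 1842 probe sets were called higher, 4647 lower, 2025 higher and 4616 higher. Leaving out single arrays gave 1 to 2 dREAM calls in can, with 2006 to 2067 probe sets called higher. Between the mutants no minimum fold gave 2 dREAM calls, both higher in the testes labelled comr, as were 2453 of all probe sets. Signs turned with ribosomal protein centring for mip130 (-0.77) and Rbf (-0.027) in the testes labelled comr, and in can for E2f2 (-0.20), Dp (-0.67), mip120 (-0.14), mip130 (-1.11) and Rbf (-0.33). mip130 also turned in can with array medians (-0.14), without the gland-rich arrays (-0.11) and without control replicate 1 or can replicate 1 (single arrays left out gave -0.13 to 0.39), and between the mutants without comr replicate 3 or can replicate 2 (-0.14 to 0.38). Beyond the construction of each alternative the cause was not tested. The share of calls that were higher, 63.4% and 61.4% against control, was 12.3% and 2.56% with ribosomal protein centring, 54.4% and 44.6% with array medians and 74.6% and 67.2% with spiked controls. Between the mutants it was 30.7% as deposited, 48.1% with ribosomal protein centring and 51.5% with spiked controls. A replicate block gave 4461, 3305 and 1450 calls and 3, 2 and 0 dREAM calls, and changed the call of no dREAM gene. Same-numbered arrays correlated from -0.137 to 0.193 in their deviations, and differently numbered arrays from -0.256 to 0.193. The ranges overlapped, and whether the numbers pair the arrays was not settled. Signals near the floor of 20.3 limit what can be said of mip130 and of mip120 in control.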
